A study of Homo sapiens with 10 samples.

Results

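The comparison described here set HS-SY-II cells kept for 24 h with WA-68 against HS-SY-II cells kept with the DMSO vehicle. It used 4 of the 10 RNA libraries of the study, chosen by their labels alone: replicates 1 and 2 of 24 h and replicates 1 and 2 of DMSO. HS-SY-II is an established human synovial sarcoma cell line, WA-68 is a degrader directed at the protein BRD9, and the dose was 100 nM. Both groups were grown in the same medium with serum, and when the DMSO cultures were harvested is not in the labels, so a change that time in culture alone brings cannot be told apart from the treatment. The other 6 libraries held cells kept with WA-68 for 12, 48 or 96 h, 2 biological replicates each. They entered the estimate of the spread between replicates, and 12 h and 48 h were also compared with 24 h. All of them come from a single line, so the p-values measure the spread between labelled biological replicates of that line and nothing beyond it.

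BRD9 is a bromodomain protein found in non-canonical BAF (ncBAF), a remodelling complex that moves nucleosomes. A degrader of the PROTAC kind holds its target and a ubiquitin ligase together, so that the target is marked for the proteasome. Synovial sarcoma is driven by the fusion protein SS18-SSX, which enters BAF complexes in place of SS18, and cells with the fusion are known to depend on BRD9. MYC, which recurs in the results, is a transcription factor that binds the sequence CACGTG, the E-box, and is known for driving ribosome production and nucleotide synthesis.

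Poly(A) RNA was sequenced, and total counts per library were 13200051 and 8830910 in DMSO and to 7931031 and 10136473 at 24 h. The 10 libraries ranged from 7349744 to 13200051. Levels are given in CPM, counts per 1000000 counts of the scaled library size, always with replicate 1 before replicate 2, and differences are log2 fold changes with their standard error (SE). Replicate 2 of DMSO lay at -24.2 on the second principal component and replicate 2 of 96 h at -26.0, while the other 8 libraries lay between -0.71 and 14.4. Between the DMSO replicates the log2 difference rose with transcript GC content (Spearman rho over genes 0.571), and genes are not independent replicates. For 24 h against DMSO that correlation was 0.174 with replicate 1 of DMSO alone and -0.383 with replicate 2 alone. The median GC content was 53.7% in genes called lower, 48.0% in genes called higher and 48.4% in all genes tested. A fit with an offset for GC content called 583 genes higher and 812 lower, against 220 and 369 without it. All 589 genes called without the offset were also called with it. The part of GC content in single calls was not tested further. Markers of synovial sarcoma (7 of 7 detected, among them TLE1, BCL2 and FGFR2) summed to 1320 to 1350 CPM in DMSO and 1270 to 1290 CPM at 24 h, by plain library size. Of 12 markers of leukocytes, endothelium, skeletal muscle and fat, 9 were at 0 in all 4 libraries (PTPRC, PECAM1, MYOD1 and ADIPOQ among them), and the sum for a cell type reached at most 0.113 in DMSO and 0.197 at 24 h. The fibroblast markers LUM, DCN and THY1 summed to 1670 to 2000 in DMSO and 1870 to 1960 at 24 h, with FAP at 0. These sums hold markers that moved in opposite directions, again by plain library size. FGFR2 stood at 136.1 and 142.2 CPM in DMSO and 174.1 and 176.8 CPM at 24 h. SIM2 went from 61.9 and 68.5 to 43.0 and 38.5 CPM. LUM went from 1458 and 1203 to 1487 and 1552 CPM, and DCN from 524 and 444 to 363 and 388 CPM.

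After 24 h the levels, which are relative to the library, were lower for MYC, many genes for ribosome production and some of glycolysis. Several signalling genes and developmental transcription factors were lower too. Some lysosomal and epithelial genes were higher, and neuronal genes changed in both directions. edgeR's quasi-likelihood test called 220 genes higher and 369 lower at a Benjamini-Hochberg adjusted p under 0.05. This was 3.6% of the 16382 genes tested, 1.34% called higher and 2.25% called lower. In each of the 589 called genes both 24 h libraries lay beyond both DMSO libraries, as they did in 45.2% of all genes tested. Most changes were small. At least 2-fold changes were called in 39 higher and 38 lower genes, and 106 higher and 255 lower genes changed by less than 1.5-fold. The median fold was 1.51 among called higher genes and 1.39 among called lower genes. Genes over 100 CPM in DMSO held 145 of the lower calls and 15 of the higher ones, while those between 5 and 20 CPM held 47 and 67. Protein-coding genes were called in 4.3% of cases, long non-coding genes in 2.32% (19 higher, 30 lower). Lower calls outnumbered higher ones under the scaling used, with 37.4% higher, whereas with library size as the only scaling 59.5% were higher (301 against 205) and the median of all genes moved from -0.0009 to 0.0565. The calls also changed when single libraries were left out. A group left with 1 library has a less certain mean, so calls lost that way do not show that a particular library drives them. Without replicate 2 of DMSO, which stood apart, 198 genes were called higher and 291 lower, and without it and replicate 2 of 96 h 458 and 665. Of the 589 calls, 133 were kept without replicate 1 of 24 h, 109 without replicate 2 of 24 h, and 72 (24 higher, 48 lower) without any 1 of the 10 libraries. In bulk RNA, fewer cells of a type and less RNA per cell cannot be told apart.

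**Figure D1:**
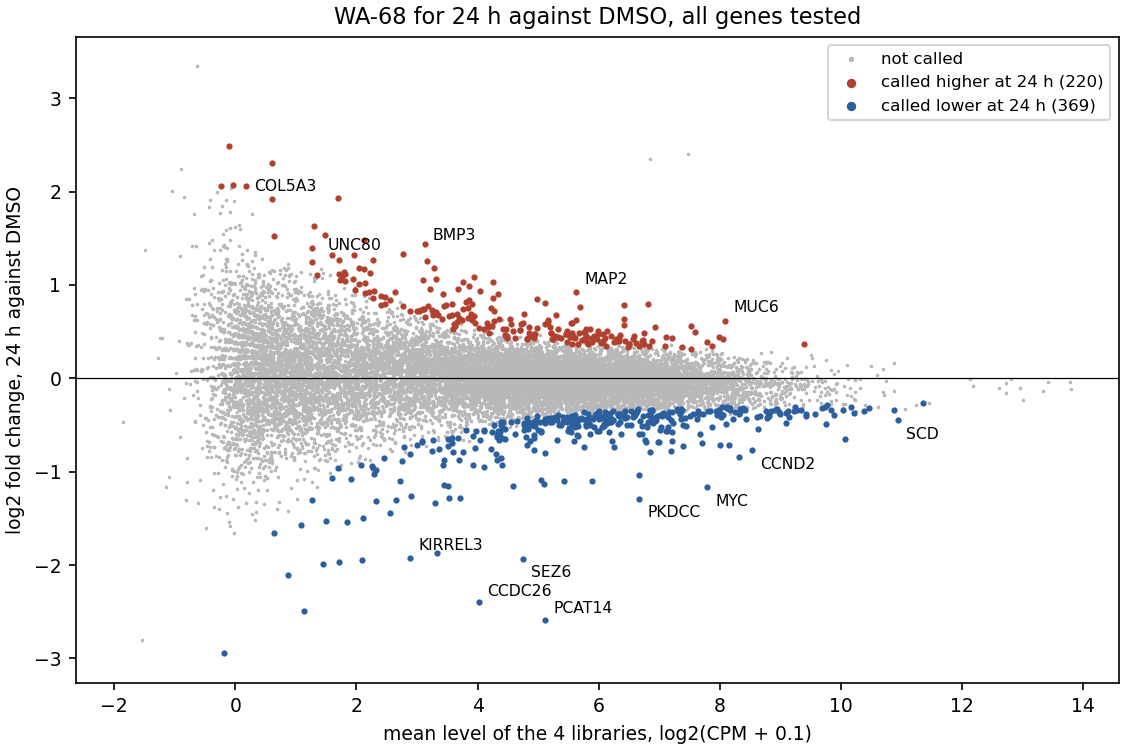
Log2 fold change at 24 h against DMSO (vertical axis) by mean level of the 4 libraries as log2(CPM + 0.1) (horizontal axis) for the 16382 genes tested, with the 220 called higher in red, the 369 called lower in blue and the rest in grey. Lower calls reach further to the right, among abundant genes, while higher calls lie mostly at low and middle levels.

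The transcripts of the targeted complex were examined first. Protein levels were not analysed here, and a protein degrader does not act on the transcript of its target. BRD9 (ENSG00000028310, chr5:850291-892824, minus strand) stood at 100.1 and 108 CPM in DMSO and 96.3 and 93.6 CPM at 24 h (adjusted p = 0.502). The 24 h levels lay below both DMSO levels, by 0.13 on the log2 scale, and the difference did not pass the test. BICRAL, the glioma tumour suppressor paralog that acts as a scaffold of ncBAF, stood at 78.7 and 78.4 CPM in DMSO and 103 and 100.1 CPM at 24 h (log2 fold change 0.37 with SE 0.091, adjusted p = 0.0224). BICRAL thus rose 1.29-fold, a call lost without replicate 1 of 24 h (adjusted p = 0.219) or replicate 2 (adjusted p = 0.177). Its paralog BICRA stood at 38.8 and 50.2 CPM in DMSO and 44.96 and 38.9 CPM at 24 h, and these groups overlapped (adjusted p = 0.826). SS18 stood at 225 and 244 CPM in DMSO and 237 and 244 CPM at 24 h, and SSX1 at 54.7 and 49.5 CPM in DMSO and 54.6 and 54.7 CPM at 24 h, with overlapping groups in both (adjusted p = 0.892 and 0.811). Reads of SS18, SSX1 and their fusion cannot be separated in a count per gene. BICRAL was the only called gene among 14 ncBAF subunits. None was called among 13 subunits of the canonical BAF and PBAF complexes, 21 Polycomb subunits, 14 genes of the BRD family and BET response, or 13 genes for E3 ligase parts. Over all genes tested 3.6% were called, so lists of this size would hold few calls at that share. The medians of these 5 lists lay between -0.068 and -0.014, with -0.001 for all genes, and only that of the BRD list kept its sign under every scaling and without any 1 library.

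The largest falls were in a few long non-coding RNAs and in membrane and signalling proteins. The long non-coding RNA PCAT14 (ENSG00000280623, chr22:23536881-23547797, plus strand) stood at 57.98 and 60.05 CPM in DMSO and 10.8 and 9.0 CPM at 24 h (log2 fold change -2.58 with SE 0.14, adjusted p = 1.56e-11). CCDC26, a long non-coding RNA downstream of MYC (ENSG00000229140, chr8:128634199-129683679, minus strand), stood at 29.3 and 25.1 CPM in DMSO and 5.90 and 4.60 CPM at 24 h (log2 fold change -2.40 with SE 0.18, adjusted p = 1.2e-08). Both 24 h levels of these genes lay far below DMSO, 6.0-fold and 5.26-fold in the fit.

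SEZ6, a membrane protein of neurons (ENSG00000063015, chr17:28954901-29006440, minus strand), stood at 46.9 and 37.5 CPM in DMSO and 13.2 and 9.39 CPM at 24 h and fell 3.81-fold (adjusted p = 3.06e-06). KIRREL3, an immunoglobulin-type adhesion molecule (ENSG00000149571, chr11:126423359-127003460, minus strand), stood at 12.1 and 10.9 CPM in DMSO and 3.39 and 2.74 CPM at 24 h and fell 3.80-fold (adjusted p = 7.82e-06). PKDCC, a secreted tyrosine kinase (ENSG00000162878, chr2:42048020-42058528, plus strand), stood at 139.7 and 148 CPM in DMSO and 59.7 and 57.8 CPM at 24 h and fell 2.44-fold (adjusted p = 3.61e-08). In all 3 genes the replicates of a group lay far closer to each other than to the other group. MYC (ENSG00000136997, chr8:127735434-127741434, plus strand) stood at 280.5 and 329.8 CPM in DMSO and 142 and 129.7 CPM at 24 h (log2 fold change -1.17 with SE 0.12, adjusted p = 2.74e-06). Its level fell 2.25-fold, and the replicates differed more in DMSO than at 24 h. Its long non-coding neighbour PVT1 stood at 136 and 124 CPM in DMSO and 94.2 and 89.7 CPM at 24 h (log2 fold change -0.50 with SE 0.11, adjusted p = 0.00715). CCND2, the cyclin D2 that starts the passage through G1, stood at 484 and 448 CPM in DMSO and 276 and 273 CPM at 24 h (log2 fold change -0.77 with SE 0.084, adjusted p = 5.89e-06). DNM3, a dynamin of membrane fission, stood at 149 and 125 CPM in DMSO and 68.6 and 65.2 CPM at 24 h, IER5L at 58.4 and 59.2 CPM in DMSO and 27.5 and 27.4 CPM at 24 h, and SCARA5, a scavenger receptor for ferritin, at 73.1 and 88.7 CPM in DMSO and 35.5 and 39.2 CPM at 24 h. All 3 were lower in both replicates. They fell 2.05-fold, 2.14-fold and 2.15-fold, with adjusted p = 3.06e-06, 3.06e-06 and 7.82e-06.

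The other large falls were in genes of lower level. ANKRD1, a nuclear adaptor and target of YAP, fell 3.85-fold, from 6.53 and 6.74 to 1.88 and 1.57 CPM. CRB2, a polarity protein of the Crumbs family, fell 2.82-fold, from 6.30 and 6.15 to 2.13 and 2.25 CPM. DDN, a protein of dendrites and podocytes, fell 2.44-fold, from 18.7 and 18.3 to 7.66 and 7.53 CPM. The MAP kinase phosphatases DUSP9 and DUSP2 fell 2.42-fold and 2.50-fold. DUSP9 went from 14.5 and 17.97 to 6.78 and 6.46 CPM and DUSP2 from 7.07 and 6.97 to 3.01 and 2.64 CPM. LIPG, the endothelial lipase, fell 3.98-fold to 1.51 and 0.685 CPM, the membrane protein PLXDC1 4.31-fold to 0.502 and 0.783 CPM, the homeobox gene HOXD12 2.92-fold to 2.01 and 1.57 CPM and the Wnt inhibitor relative APCDD1L 2.40-fold to 4.77 and 3.91 CPM. Non-coding genes made up the rest. LINC01659, on chromosome 22 like PCAT14, fell 2.53-fold to 4.52 and 6.36 CPM and the pseudogene ZDHHC8BP 3.91-fold to 1.13 and 1.37 CPM. LBX1-AS1 fell 2.72-fold to 3.01 and 3.23 CPM, NFIB-AS1 3.16-fold to 0.502 and 0.881 CPM, and MIR9-1HG, a host gene of the miRNA miR-9, 2.47-fold to 1.38 and 1.27 CPM. Counts of antisense genes, of pseudogenes and of PCAT14, which has repeat-derived sequence, are uncertain because the strand setting of the counting and how it treated reads with several matches are not known here. Of the 25 falling genes in the last 3 paragraphs 17 kept their call without any 1 library. PLXDC1, NFIB-AS1, MIR9-1HG and PVT1 lost it without replicate 1 of 24 h and 8 of them, LIPG, HOXD12, DUSP2 and APCDD1L included, without replicate 2 (adjusted p up to 0.318), and leaving out another library ended 0 to 2 calls.

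**Figure D2:**
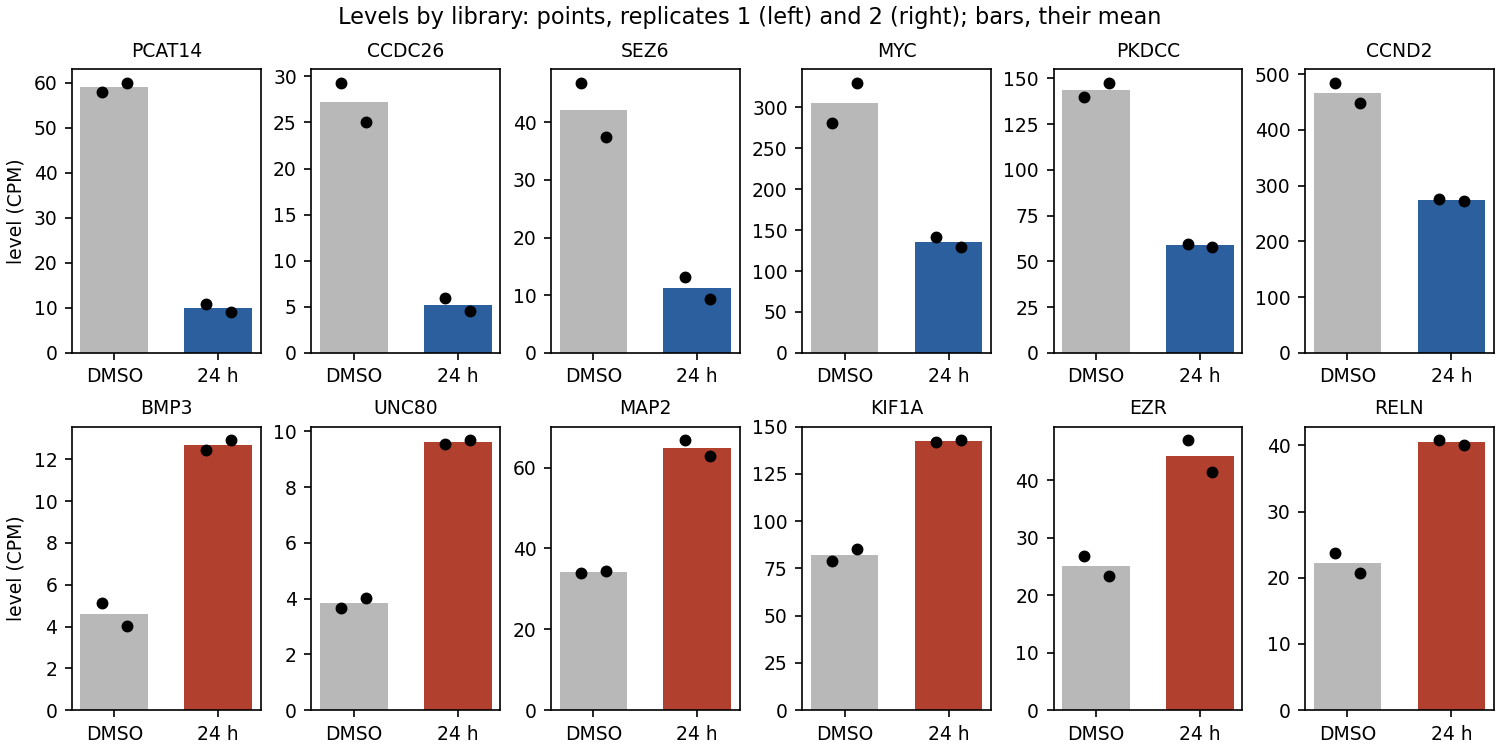
Level in CPM (vertical axis, starting at 0) in each library of DMSO (grey bars) and 24 h (blue where lower, red where higher) for 12 genes with falls or rises. Points are replicates 1 and 2 and bars their mean; in each gene shown the pairs of points of the groups lie apart, as for MYC at 280.5 and 329.8 against 142 and 129.7 CPM and MAP2 at 33.9 and 34.4 against 66.8 and 62.8 CPM.

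Among the rises with the smallest adjusted p were genes of the neuronal cytoskeleton. MAP2, which stabilizes microtubules in dendrites (ENSG00000078018, chr2:209424058-209734118, plus strand), stood at 33.9 and 34.4 CPM in DMSO and 66.8 and 62.8 CPM at 24 h (log2 fold change 0.92 with SE 0.098, adjusted p = 4.06e-06). KIF1A, a motor protein of axons (ENSG00000130294, chr2:240713761-240821036, minus strand), stood at 78.8 and 85.3 CPM in DMSO and 142 and 143 CPM at 24 h (log2 fold change 0.80 with SE 0.10, adjusted p = 6.69e-05). The replicates of both differed little, and the groups lay well apart. RELN, a secreted glycoprotein that guides migrating neurons, stood at 23.8 and 20.7 CPM in DMSO and 40.8 and 40.1 CPM at 24 h (log2 fold change 0.85 with SE 0.12, adjusted p = 0.000208). EZR, the linker ezrin between membrane and actin, stood at 26.7 and 23.3 CPM in DMSO and 46.97 and 41.4 CPM at 24 h (log2 fold change 0.81 with SE 0.12, adjusted p = 0.000298). KLF12, a zinc-finger repressor, stood at 40.8 and 35.3 CPM in DMSO and 64.6 and 65.4 CPM at 24 h (log2 fold change 0.76 with SE 0.10, adjusted p = 7.24e-05). The non-coding FZD10-AS1, LINC01605 and LNC-LBCS rose as well, 1.87-fold to 25.9 and 26.4 CPM, 2.04-fold to 27.5 and 23.7 CPM and 2.39-fold to 12.3 and 12.6 CPM.

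Among genes with at least 2 CPM in the higher group, most of the largest rises by fold were in genes that DMSO cells held at a few CPM or less. BMP3, a ligand that opposes other bone morphogenetic proteins (ENSG00000152785, chr4:81030965-81057531, plus strand), stood at 5.13 and 4.02 CPM in DMSO and 12.4 and 12.9 CPM at 24 h (log2 fold change 1.44 with SE 0.22, adjusted p = 0.000414). UNC80, a subunit of the sodium leak channel, stood at 3.65 and 4.02 CPM in DMSO and 9.54 and 9.69 CPM at 24 h (log2 fold change 1.33 with SE 0.20, adjusted p = 0.000416). COL5A3, a chain of the fibrillar collagen V, stood at 1.24 and 1.42 CPM in DMSO and 3.52 and 6.36 CPM at 24 h, and rose 3.83-fold in the fit, with 24 h replicates far apart. NMI, which binds MYC and STAT proteins, went from 0.70 and 0.473 to 1.26 and 3.23 CPM, a larger gap between its 24 h replicates than between replicate 1 and DMSO. ITIH5, a hyaluronan-binding protein, rose 3.10-fold to 3.89 and 3.23 CPM, the Ras activator RASGRP3 2.91-fold to 3.52 and 4.40 CPM, and the imprinted gene MEST 2.88-fold to 1.63 and 2.64 CPM. DENND3, an exchange factor for a Rab GTPase, rose 2.79-fold to 5.15 and 7.34 CPM, the complement protease C1S 2.62-fold to 3.52 and 3.03 CPM, and the urotensin receptor UTS2R 2.49-fold to 4.27 and 4.01 CPM. FGD4, an activator of Cdc42, rose 2.41-fold to 6.66 and 6.85 CPM, the death-associated kinase DAPK1 2.41-fold to 3.52 and 5.38 CPM, and the adaptor GAB2 2.27-fold to 4.90 and 6.26 CPM. The interferon-inducible IFIT3 and IFI27L2 rose 2.51-fold and 2.26-fold, the neurotrophin receptor NGFR 2.17-fold, KIAA0319 2.19-fold and the antisense NCKAP5-AS2 2.20-fold. Of the 26 rising genes in this and the last paragraph 10 kept their call without any 1 library: BMP3, UNC80, MAP2, KIF1A, KLF12, RELN, EZR, FZD10-AS1, LINC01605 and LNC-LBCS. The other 16 lost it without at least 1 library, 8 without replicate 1 and 14 without replicate 2 of 24 h and 0 to 9 without any other, with adjusted p up to 0.644 for NMI.

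Many genes for ribosome production fell. Ribosome biogenesis factors process ribosomal RNA and assemble its subunits in the nucleolus. Of 35 such factors 18 fell and none rose, all 35 had a log2 fold change below 0, and the median was -0.378, against -0.001 for all genes. The share called was 51.4%, against 3.6% of all genes tested. NOLC1, a chaperone of snoRNPs, stood at 271 and 282 CPM in DMSO and 190.3 and 195 CPM at 24 h (log2 fold change -0.52 with SE 0.089, adjusted p = 0.00125). MYBBP1A, a nucleolar protein, stood at 152 and 176 CPM in DMSO and 114 and 109 CPM at 24 h (log2 fold change -0.56 with SE 0.094, adjusted p = 0.00113). MRTO4, an assembly factor of the large subunit, stood at 64.98 and 65.1 CPM in DMSO and 46.3 and 44.7 CPM at 24 h (log2 fold change -0.52 with SE 0.094, adjusted p = 0.00221). All 3 lay clearly lower in both 24 h libraries, and only MYBBP1A differed much between its DMSO replicates. RRP12, WDR43 and BOP1, which act in processing of ribosomal RNA precursors, fell by 0.52, 0.45 and 0.48 on the log2 scale (adjusted p = 0.00246, 0.00517 and 0.00614). Without replicate 1 or 2 of 24 h, 4 and 2 of the 35 were called, and 14 to 20 without any other library. NOLC1 kept its call without any 1 library, and 5 of the 6 named genes lost it without replicate 2 of 24 h and 2 without replicate 1, with adjusted p up to 0.132. The list median stayed between -0.401 and -0.371 when any 1 library was left out.

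The E-box CACGTG, which reads the same on both strands, was searched in the 250 bases before and 50 after the start of each gene, in RefSeq promoter sequences of GRCh38.p14. It stood in 46.7% of the promoters of ribosome biogenesis factors (14 of 30 found in the table), in 15.6% of those of called lower genes (40 of 256), in 4.9% of those of called higher genes (8 of 164), in 10.2% of those of all genes tested and in 7.4% of all 27305 promoters. Among ribosome biogenesis factors it stood in 7 of 14 that were called and in 7 of 16 that were not. The promoters of MRTO4 and WDR43 are shown from 70 bases before to 30 after the start, on the coding strand, as examples of such a promoter in genes that fell, with CACGTG in capitals (chr1:19251735-19251834, plus strand for MRTO4 and chr2:28894597-28894696, plus strand for WDR43). The first base of the motif lay at position 15 in MRTO4 and 4 in WDR43, counted from 1 at the start. A match describes these letters only, and binding of MYC was not measured.
MRTO4: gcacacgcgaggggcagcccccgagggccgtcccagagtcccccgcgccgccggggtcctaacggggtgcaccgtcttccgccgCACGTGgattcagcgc
WDR43: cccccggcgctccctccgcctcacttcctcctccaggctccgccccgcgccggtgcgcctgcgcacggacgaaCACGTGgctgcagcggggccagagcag

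The cytosolic ribosomal proteins, the structural parts of the ribosome, fell in part. Of 78 such genes 29 fell and none rose, and all 78 log2 fold changes were negative, between -0.49 and -0.14, with a median of -0.289. The share called was 37.2%, against 3.6% of all genes tested. RPL4 stood at 1502 and 1463 CPM in DMSO and 1146 and 1189 CPM at 24 h (log2 fold change -0.34 with SE 0.078, adjusted p = 0.0118). RPL7A stood at 844 and 869 CPM in DMSO and 646 and 671 CPM at 24 h (log2 fold change -0.38 with SE 0.085, adjusted p = 0.0118). Each was lower in both 24 h libraries, and the replicates of a group differed little. RPL5, RPL23 and RPL6 fell by 0.40, 0.40 and 0.38 on the log2 scale (adjusted p = 0.00715, 0.00842 and 0.00862). Without 1 library many calls were lost: 0 of 78 were called without replicate 1 of 24 h, 1 without replicate 2, and 12 to 54 without any other library, so that the adjusted p of the 5 named genes ran up to 0.241. The list median stayed between -0.319 and -0.266 when any 1 library was left out. With library size as the only scaling 14 were called and the median was -0.231. Ribosomal protein genes have many processed pseudogenes, and reads that match several copies may have been split or lost. CACGTG stood in 4.8% of their promoters (3 of 62), under its share among all genes tested.

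snoRNA host genes carry the small nucleolar RNAs that guide modification of ribosomal RNA in their introns. Of 19 tested 6 fell (31.6%, against 3.6% called among all genes tested), with a median of -0.314. SNHG15 stood at 37.1 and 39.6 CPM in DMSO and 21.5 and 23.2 CPM at 24 h (log2 fold change -0.77 with SE 0.12, adjusted p = 0.000437). SNHG17 stood at 117 and 128 CPM in DMSO and 80.8 and 80.6 CPM at 24 h (log2 fold change -0.60 with SE 0.089, adjusted p = 0.000296). SNHG3 stood at 172 and 160.1 CPM in DMSO and 114 and 117 CPM at 24 h (log2 fold change -0.53 with SE 0.089, adjusted p = 0.00122). In these 3 the groups lay well apart, and they kept their call without any 1 library. SNHG1, DANCR and SNHG16 fell by 0.48, 0.42 and 0.32. Enzymes of nucleotide synthesis fell in 5 of 25 cases (median -0.246), namely PFAS, PAICS and GART of purine synthesis, the folate enzyme MTHFD1L and CAD, which starts pyrimidine synthesis. PFAS stood at 142 and 165 CPM in DMSO and 105 and 104 CPM at 24 h (log2 fold change -0.55 with SE 0.096, adjusted p = 0.00155), and MTHFD1L at 24.4 and 25.7 CPM in DMSO and 14.4 and 16.9 CPM at 24 h (log2 fold change -0.66 with SE 0.14, adjusted p = 0.00796). PAICS, GART and CAD fell by 0.40, 0.39 and 0.35 on the log2 scale. Among 35 translation factors 2 fell (median -0.168), EIF4EBP1, an inhibitor of cap-dependent initiation, by 0.57 and the initiation factor subunit EIF3B by 0.31. Among 28 subunits of RNA polymerases I and III 2 fell (median -0.106), POLR1C by 0.44 among them. The share called was 20% for nucleotide synthesis, 5.71% for translation factors and 7.14% for these subunits, against 3.6% of all genes tested. Counts of 2 lie near what that share would give in lists of this size. None was called among 60 mitochondrial ribosomal proteins (median -0.083) and 20 chaperonins and heat shock proteins (median -0.191). Besides the 3 host genes, the 11 genes named here lost their call without at least 1 library, 9 without replicate 1 and 10 without replicate 2 of 24 h and 0 to 4 without any other (adjusted p up to 0.541).

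**Figure D3:**
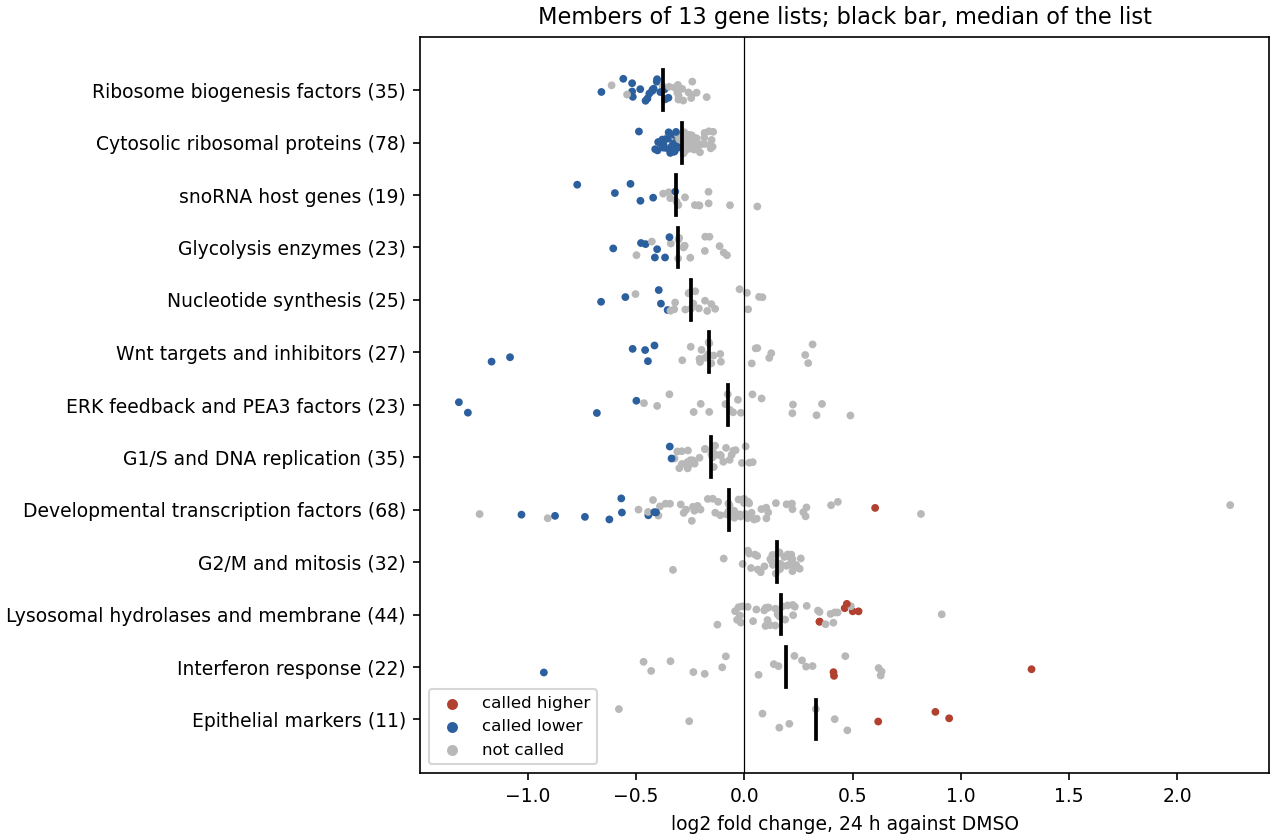
Log2 fold change at 24 h against DMSO (horizontal axis) of each tested member of 13 gene lists (rows, number tested in brackets), red where called higher, blue where called lower and grey where not called, with the list median as a black bar. Every ribosome biogenesis, ribosomal protein and glycolysis gene lies left of 0, while the lists on G2/M, the lysosome, interferon and epithelial markers have medians right of 0.

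Some genes of glycolysis, which turns glucose into pyruvate and lactate, fell. Of 23 genes 7 fell (30.4%, against 3.6% called among all genes tested), all 23 lay below 0, and the median was -0.305. The enzyme ENO1 stood at 591 and 682 CPM in DMSO and 469 and 446 CPM at 24 h (log2 fold change -0.48 with SE 0.089, adjusted p = 0.00269). PGK1 stood at 439 and 481 CPM in DMSO and 349.9 and 345 CPM at 24 h (log2 fold change -0.40 with SE 0.083, adjusted p = 0.00669). SLC2A1, the glucose transporter GLUT1, stood at 23.6 and 25.7 CPM in DMSO and 15.2 and 16.9 CPM at 24 h (log2 fold change -0.61 with SE 0.15, adjusted p = 0.0219). Groups did not overlap in these genes, and replicate 2 of DMSO was the higher one in each. GPI, LDHA and PFKFB3 fell by 0.41, 0.35 and 0.37 on the log2 scale. The list median was -0.414 without replicate 1 of DMSO and -0.214 without replicate 2, with 15 and 3 genes called, and 1 and 0 were called without replicate 1 or 2 of 24 h. Among 25 targets of the hypoxia factor HIF 4 fell and 1 rose (20% called). DDIT4, an inhibitor of the growth kinase mTORC1, stood at 38.9 and 51.2 CPM in DMSO and 21.3 and 20.5 CPM at 24 h (log2 fold change -1.09 with SE 0.15, adjusted p = 8.88e-05). BNIP3 and PLOD1 fell by 0.51 and 0.42, and SLC2A1 is a member of this list too. NDRG1, another target, moved the other way, with 26.1 and 30.02 CPM in DMSO and 45.5 and 40.8 CPM at 24 h (log2 fold change 0.63 with SE 0.11, adjusted p = 0.0018).

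In lipid synthesis 3 of 19 fatty acid genes fell: the desaturases SCD and FADS2 and the carboxylase ACACA. SCD stood at 2314 and 2222 CPM in DMSO and 1661 and 1668 CPM at 24 h (log2 fold change -0.45 with SE 0.094, adjusted p = 0.00715), and FADS2 at 439.8 and 497 CPM in DMSO and 333 and 311 CPM at 24 h (log2 fold change -0.54 with SE 0.095, adjusted p = 0.00167). ACACA fell by 0.30. Of 25 cholesterol genes only TM7SF2, a sterol reductase, was called, and it rose 1.74-fold, from 8.86 and 8.27 to 17.3 and 12.9 CPM. Among 23 genes of the integrated stress response, which raises amino acid supply, SLC1A5, PHGDH and IARS1 fell by 0.47, 0.41 and 0.32. None was called among 42 nuclear genes of the respiratory chain or 13 mitochondrially encoded transcripts. The share called was 15.8% for fatty acid genes, 13% for stress response genes and 4% for cholesterol genes. The last lies near the 3.6% of all genes tested. DDIT4 kept its call without any 1 library. The other 16 called genes of this and the last paragraph lost it without at least 1, 14 without replicate 1 and 14 without replicate 2 of 24 h and 0 to 8 without any other (adjusted p up to 0.427 for PFKFB3).

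A few lysosomal genes rose. Lysosomes break down macromolecules with acid hydrolases, and many of their genes are known to answer to TFEB and TFE3, factors that bind the same E-box core as MYC. Of 44 lysosomal hydrolases and membrane proteins 6 rose and none fell, with 37 above 0, 7 below 0 and a median of 0.168. The 6 were 13.6% of the list, against 1.34% called higher among all genes tested. How many of the 44 were called changed when single libraries were left out, while the list median stayed between 0.167 and 0.202. CTSA, the carboxypeptidase that protects other hydrolases, stood at 147 and 170.2 CPM in DMSO and 224 and 225 CPM at 24 h (log2 fold change 0.50 with SE 0.091, adjusted p = 0.00216). NEU1, the sialidase that forms a complex with CTSA, stood at 45.3 and 44.9 CPM in DMSO and 57.9 and 71.7 CPM at 24 h (log2 fold change 0.53 with SE 0.11, adjusted p = 0.00602). NPC2, which carries cholesterol out of the lysosome, stood at 50.8 and 56.03 CPM in DMSO and 70.1 and 77.6 CPM at 24 h (log2 fold change 0.47 with SE 0.095, adjusted p = 0.00517). All 24 h levels of these lay above DMSO, NEU1 with the widest gap between replicates. HEXA and ARSA, which cleave glycolipids, rose by 0.35 and 0.46 on the log2 scale. OPTN, an autophagy receptor, was the only called gene of 29 autophagy and TFE factors (median 0.197, and 0.123 without replicate 1 of DMSO) and stood at 31.9 and 28.5 CPM in DMSO and 44.96 and 51.8 CPM at 24 h (log2 fold change 0.68 with SE 0.11, adjusted p = 0.00087). None of 17 subunits of the vacuolar ATPase was called (median 0.184). The call of OPTN was 3.45% of its list, near the 3.6% of all genes tested. CTSA kept its call without any 1 library, and 5 of the 6 named genes lost it, 2 without replicate 1 and 5 without replicate 2 of 24 h and 0 to 2 without any other (adjusted p up to 0.336).

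CACGTG stood in 32.1% of the lysosomal promoters in the table (9 of 28) and 33.3% of those of the vacuolar ATPase (4 of 12). It stood in 7.4% of those of autophagy and TFE factors (2 of 27), against 10.2% among all genes tested. Of called lysosomal genes only 3 had a promoter in the table. CTSA and NEU1 held CACGTG and NPC2 did not, while 7 of 25 lysosomal genes that were not called held it. The longer palindrome TCACGTGA, which contains CACGTG, stood in 17.9% of the lysosomal promoters (5 of 28). Its share was 2.0% among genes tested and 1.0% among all promoters. None of the 30 promoters of ribosome biogenesis factors or the 27 of autophagy and TFE factors held it. CTSA is shown from 70 bases before to 30 after its start (chr20:45891265-45891364, plus strand), because it holds CACGTG at both -42 and -25. NEU1 is shown from 150 to 51 bases before its start (chr6:31862872-31862971, minus strand), with the motif at -126, where -1 is the base before the start.
CTSA: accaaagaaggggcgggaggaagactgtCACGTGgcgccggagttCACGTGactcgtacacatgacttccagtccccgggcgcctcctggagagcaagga
NEU1: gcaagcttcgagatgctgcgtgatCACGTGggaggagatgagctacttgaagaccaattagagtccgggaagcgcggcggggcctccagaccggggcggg

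At 24 h called genes made up 11.1% of the list of CDK inhibitors and D-type cyclins. They made up 5.71% of the G1/S list and 0% of the G2/M list, against 3.6% of all genes tested. Among 18 CDK inhibitors, D-type cyclins and related genes CCND2 fell, as given above, and RB1, the retinoblastoma protein that holds cells in G1, rose from 51.7 and 42.7 to 61.9 and 64.3 CPM (log2 fold change 0.41 with SE 0.11, adjusted p = 0.0378). Of 35 genes for G1/S and DNA replication 2 fell, and 0 without replicate 1 or replicate 2 of 24 h. The median was -0.153 (32 below 0), and -0.238 without replicate 1 of DMSO. MCM4, a subunit of the replicative helicase, stood at 535 and 537 CPM in DMSO and 432 and 417 CPM at 24 h (log2 fold change -0.34 with SE 0.085, adjusted p = 0.0276), and UHRF1, a partner of the maintenance DNA methyltransferase, at 164 and 191 CPM in DMSO and 142 and 138 CPM at 24 h (log2 fold change -0.34 with SE 0.094, adjusted p = 0.0399). Of 32 genes for G2/M and mitosis none was called, with 7 at an unadjusted p under 0.05, yet 29 lay above 0 and the median was 0.149, with 0.098 without replicate 1 and 0.199 without replicate 2 of 24 h. The proliferation marker MKI67 stood at 1668 and 1876 CPM in DMSO and 2100.1 and 1877 CPM at 24 h (adjusted p = 0.404), the kinetochore protein CENPF at 1062 and 1029.7 CPM in DMSO and 1197 and 1115 CPM at 24 h (adjusted p = 0.409) and the mitotic kinase PLK1 at 93.6 and 114 CPM in DMSO and 119 and 107 CPM at 24 h (adjusted p = 0.658). The groups overlapped in PLK1, and in MKI67 the higher DMSO library nearly met the lower 24 h library. Among 18 p53 targets only AEN, a nuclease, was called, from 46.4 and 50.4 to 34.8 and 33.5 CPM (log2 fold change -0.50 with SE 0.11, adjusted p = 0.00724). Among 14 members of the BCL2 family only BID, a trigger of apoptosis, was called, from 15.6 and 13.1 to 10.5 and 8.32 CPM (log2 fold change -0.63 with SE 0.18, adjusted p = 0.0435). RB1, MCM4, UHRF1, AEN and BID each lost their call without replicate 1 or replicate 2 of 24 h. MCM4 also lost it without replicate 2 of DMSO. RB1, UHRF1 and BID lost it without any 1 of 7 libraries, those of 12 h and 48 h among them.

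Called genes of growth factor signalling went both ways. Of 23 genes for ERK feedback and PEA3 factors, which answer to growth factor signals through MAP kinase, 4 fell: the phosphatases DUSP9, DUSP2 and DUSP6 and the ETS factor ETV4. ETV4 stood at 123 and 148 CPM in DMSO and 91.1 and 77.99 CPM at 24 h (log2 fold change -0.68 with SE 0.11, adjusted p = 0.000799), and DUSP6 at 33.7 and 34.3 CPM in DMSO and 23.2 and 24.8 CPM at 24 h (log2 fold change -0.50 with SE 0.11, adjusted p = 0.0121). Among 14 FGF ligands, receptors and partners FGFR4 fell from 12.98 and 15.8 to 8.92 and 9.20 CPM and the ligand FGF8 from 10.5 and 10.2 to 6.66 and 6.36 CPM. FLRT3, a membrane protein that binds FGF receptors, rose from 60.4 and 56.6 to 80.5 and 77.6 CPM. Among 26 other growth factor receptors PDGFRA fell from 52.7 and 58.5 to 40.6 and 38.7 CPM, NGFR rose from 2.33 and 1.89 to 5.27 and 4.21 CPM and MET, the receptor of hepatocyte growth factor, from 3.26 and 3.43 to 6.66 and 5.58 CPM. JUNB was the only called gene of 20 immediate early genes and fell by 0.45. The share called was 17.4% in the ERK list, 21.4% in the FGF list and 11.5% among other growth factor receptors. It was 5% among immediate early genes, near the 3.6% of all genes tested.

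Of 27 Wnt targets and inhibitors 6 fell and none rose (median -0.165), against 2 and 1 without replicate 1 or 2 of 24 h. Besides MYC they were the inhibitor NKD2, from 73.8 and 81.7 to 55.3 and 53.2 CPM (log2 fold change -0.52 with SE 0.096, adjusted p = 0.0025), the transcription factor LEF1, from 130.3 and 141 to 100.2 and 97.4 CPM (log2 fold change -0.46 with SE 0.089, adjusted p = 0.00377), and the receptor FZD2, from 79.1 and 95.2 to 64.8 and 62.7 CPM (log2 fold change -0.45 with SE 0.099, adjusted p = 0.0108). LGR6, a receptor for R-spondin, fell by 1.08 and the inhibitor APCDD1 by 0.42. The share called in the Wnt list was 22.2%, against 3.6% of all genes tested. Among 24 YAP and TEAD targets ANKRD1, FOXF2 and FJX1 fell, FOXF2 from 64.7 and 75.4 to 46.1 and 45.99 CPM and FJX1 from 27.8 and 25.8 to 15.1 and 18.9 CPM. Among 24 Notch and Hedgehog genes NRARP, a Notch feedback inhibitor, fell from 48.96 and 46.1 to 33.7 and 33.7 CPM. The Notch target HES4 rose from 14.4 and 13.7 to 19.3 and 21.2 CPM, and HHIP, which binds Hedgehog ligands, from 59.8 and 55.8 to 80.6 and 72.4 CPM. Among 28 genes of BMP signalling BMP3 and ID1, an inhibitor of helix-loop-helix factors, rose, ID1 from 60.2 and 78.6 to 89.3 and 93.1 CPM, and BAMBI, a decoy receptor, fell from 178 and 187 to 156 and 135 CPM. None of 13 TGF-beta targets and SMADs was called. The share called was 12.5% among YAP and TEAD targets, 12.5% among Notch and Hedgehog genes and 10.7% among BMP genes. DUSP9, ANKRD1 and BMP3 kept their call without any 1 library. The other 22 of 25 called genes of this and the last paragraph, MYC apart, lost it without at least 1, 18 without replicate 1 and 21 without replicate 2 of 24 h and 0 to 11 without any other (adjusted p up to 0.553 for BAMBI).

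Developmental transcription factors, many of which the fusion protein is known to keep active, held more called falls than rises. Of 68 tested 9 fell and 1 rose, so that 14.7% were called, against 3.6% of all genes tested. Falls outnumbered rises among all genes too, with 2.25% called lower and 1.34% called higher. Without replicate 1 or 2 of 24 h 2 and 3 were called lower, and 8 to 12 without any other library. The median was -0.072, with -0.151 without replicate 1 and -0.018 without replicate 2 of DMSO. SIM2, a helix-loop-helix factor, stood at 63.5 and 71.5 CPM in DMSO and 42.8 and 38.2 CPM at 24 h (log2 fold change -0.74 with SE 0.11, adjusted p = 0.000351). EN2, an engrailed homeobox factor, stood at 76.6 and 76.95 CPM in DMSO and 48.7 and 54.7 CPM at 24 h (log2 fold change -0.57 with SE 0.097, adjusted p = 0.00125). TBX2, a T-box repressor, stood at 145 and 190.1 CPM in DMSO and 118 and 107 CPM at 24 h (log2 fold change -0.57 with SE 0.11, adjusted p = 0.00327). In SIM2 and EN2 the replicates of a group were close, whereas the DMSO replicates of TBX2 lay further apart than the lower of them lay from 24 h. PAX2, SIX2 and ZIC2 fell by 0.62, 0.87 and 0.41 on the log2 scale. LHX4, named because it was the only one to rise, went from 10.3 and 9.69 to 13.9 and 16.3 CPM (adjusted p = 0.0389). HOXD12 was the only called gene of 26 HOX genes (3.85%, near the 3.6% of all genes tested). Among 13 mesenchymal regulators SNAI2, the factor Slug, fell from 174 and 181 to 120.1 and 118 CPM (log2 fold change -0.57 with SE 0.097, adjusted p = 0.00113) and the homeobox factor PRRX2 from 33.3 and 34.5 to 22.1 and 24.1 CPM. CDH2, the cadherin of neural and mesenchymal cells, rose from 165 and 161 to 208 and 198 CPM. The share called was 23.1% in this list and 18.2% in the list of synovial sarcoma genes that follows. Of 22 genes associated with synovial sarcoma 3 fell, SIM2, PDGFRA and the growth factor IGF2, and 1 rose, the corepressor TLE4. IGF2 stood at 895 and 1121 CPM in DMSO and 719 and 721 CPM at 24 h (log2 fold change -0.48 with SE 0.10, adjusted p = 0.00707), and TLE4 at 94.9 and 106 CPM in DMSO and 127 and 127 CPM at 24 h (log2 fold change 0.35 with SE 0.092, adjusted p = 0.0361). SIM2 and SNAI2 kept their call without any 1 library, and the other 11 named here lost it without at least 1, 9 without replicate 1 and 9 without replicate 2 of 24 h and 0 to 3 without any other (adjusted p up to 0.422).

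Matrix genes changed in both directions. Of 52 matrix proteins and enzymes other than collagens 6 fell and 1 rose, and 2 fell without replicate 1 or replicate 2 of 24 h. MMP2, the gelatinase that cleaves type IV collagen, stood at 1231 and 1384 CPM in DMSO and 844 and 827 CPM at 24 h (log2 fold change -0.65 with SE 0.088, adjusted p = 0.000116). BGN, the proteoglycan biglycan, stood at 29.9 and 36.5 CPM in DMSO and 14.2 and 15.4 CPM at 24 h (log2 fold change -1.15 with SE 0.17, adjusted p = 0.000208). Both lay well below DMSO in both replicates. The proteoglycan DCN fell from 537 and 464 to 362 and 384 CPM, ELN, the elastin gene, from 7.31 and 5.79 to 3.01 and 3.62 CPM and the protease ADAMTS10 from 87.7 and 103 to 73.1 and 72.9 CPM. MATN2, an adaptor of matrix filaments, was the gene that rose, from 12.5 and 9.69 to 14.3 and 20.5 CPM. The share called was 13.5% in this list and 17.9% among collagens, against 3.6% of all genes tested. Of 28 collagen genes COL5A3, COL5A2 and COL4A5 rose, the last 2 by 0.43 and 0.38, and COL1A1 and COL2A1 fell by 0.39 and 0.52 on the log2 scale. COL2A1, the cartilage collagen, was also the only called gene in the lists for muscle, fat, bone and cartilage, and endothelial cells. Few genes of these lists were tested, 2 of 12, 1 of 8, 3 of 10 and 2 of 10 in that order. Of 31 epithelial markers 20 were too low to be tested. The median of the 11 tested was 0.33, with 0.181 without replicate 1 and 0.65 without replicate 2 of 24 h. A low gene can pass the filter through a group where it is high, so this median does not describe all 31. With all libraries 3 rose, the mucins MUC6 and MUC1 and OCLN, a protein of tight junctions. MUC6 stood at 206 and 222 CPM in DMSO and 363 and 294 CPM at 24 h (log2 fold change 0.62 with SE 0.11, adjusted p = 0.00162), MUC1 at 2.95 and 4.49 CPM in DMSO and 6.41 and 6.85 CPM at 24 h and OCLN at 2.88 and 2.36 CPM in DMSO and 4.27 and 5.87 CPM at 24 h. MUC1 and OCLN were at a few CPM, whereas MUC6 was abundant. MMP2 and BGN kept their call without any 1 library, and 12 of the 14 called genes lost it without at least 1, 10 without replicate 1 and 11 without replicate 2 of 24 h and 0 to 6 without any other (adjusted p up to 0.62 for MATN2).

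Genes of nerve cells also split. Of 34 ion channel genes of excitable cells 4 rose and 2 fell. Besides UNC80 the sodium channel SCN9A rose from 5.98 and 4.96 to 11.2 and 11.8 CPM (log2 fold change 1.05 with SE 0.19, adjusted p = 0.00194), the pacemaker channel HCN2 from 54.6 and 62.1 to 84.5 and 81.2 CPM (log2 fold change 0.51 with SE 0.10, adjusted p = 0.00522) and the calcium channel subunit CACNA2D1 by 0.48. KCNMA1, a potassium channel opened by calcium, fell from 29.8 and 25.5 to 14.8 and 14.4 CPM (log2 fold change -0.93 with SE 0.15, adjusted p = 0.0009) and the sodium channel subunit SCN4B by 0.39. Of 46 genes of the neuronal cytoskeleton and synapse 4 rose and 3 fell. Among those that rose were MAP2, the synaptic adhesion molecule NLGN1 and PCLO, a scaffold of the presynaptic zone. PCLO went from 7.07 and 7.09 to 12.2 and 11.4 CPM, and NLGN1, outside the rule for named genes, from 17.02 and 11.8 to 21.3 and 21.6 CPM. SEZ6, DDN and the adhesion molecule L1CAM fell, L1CAM from 24.7 and 24.5 to 15.8 and 17.2 CPM. Of 55 axon guidance genes SEMA3C, a secreted semaphorin, rose from 99.7 and 97.8 to 138 and 150.1 CPM (log2 fold change 0.55 with SE 0.09, adjusted p = 0.000891) and the Slit receptor ROBO2 by 0.39. KIRREL3 and DRAXIN, a repulsive cue, fell, DRAXIN by 0.38. Called genes were 17.6% of the ion channel list, 15.2% of the cytoskeleton and synapse list and 7.27% of the axon guidance list. Over all genes tested the share was 3.6%. In the full lists 40 of 74, 36 of 82 and 14 of 69 genes did not pass the filter and were not tested. A low gene can pass it through a group where it is high, so these shares do not describe the full lists. UNC80, KCNMA1, SEZ6, MAP2, DDN and KIRREL3 kept their call without any 1 library. The other 10 lost it without at least 1, 8 without replicate 1 and 10 without replicate 2 of 24 h and 0 to 5 without any other (adjusted p up to 0.483).

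Interferon genes were mixed. Of 22 tested 3 rose and 1 fell, so that 18.2% were called, against 3.6% of all genes tested. The median was 0.194, with 0.093 without replicate 1 and 0.277 without replicate 2 of DMSO. Leaving out replicate 2 of 24 h gave 0.118. IFIT3, an antiviral effector, stood at 2.64 and 1.54 CPM in DMSO and 5.53 and 5.48 CPM at 24 h (log2 fold change 1.33 with SE 0.28, adjusted p = 0.00735). STAT2, a transducer of the interferon signal, stood at 88.3 and 93.5 CPM in DMSO and 121 and 121 CPM at 24 h (log2 fold change 0.41 with SE 0.092, adjusted p = 0.011). IFITM1, a membrane protein that blocks viral entry, fell and stood at 12.6 and 15.5 CPM in DMSO and 6.78 and 7.73 CPM at 24 h (log2 fold change -0.93 with SE 0.20, adjusted p = 0.00743). The direction thus differed between genes of this list, and PARP14 rose by 0.41. None of 14 genes of MHC class I presentation was called. XBP1, the factor of the unfolded protein response, was the only called gene of 22 in that list and fell by 0.39. That was 4.55% of the list, near the 3.6% of all genes tested. Without replicate 1 or replicate 2 of 24 h none of these 5 calls was kept (adjusted p up to 0.439 for PARP14).

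Some of the steadiest falls lay outside the lists and the naming rule and were chosen after their values were seen. They are 7 of the 72 genes called without any 1 of the 10 libraries. CRABP2, which carries retinoic acid to its receptor, stood at 389 and 426 CPM in DMSO and 224 and 229.7 CPM at 24 h (log2 fold change -0.85 with SE 0.10, adjusted p = 2.26e-05). CYP26B1, which breaks down retinoic acid, stood at 148 and 162 CPM in DMSO and 96.95 and 96.9 CPM at 24 h (log2 fold change -0.68 with SE 0.10, adjusted p = 0.000437). In both genes the groups lay well apart. TFRC, the transferrin receptor that brings in iron, stood at 393 and 313 CPM in DMSO and 213 and 219.7 CPM at 24 h (log2 fold change -0.71 with SE 0.10, adjusted p = 0.000234). HMGA1, an architectural chromatin protein, stood at 165 and 207 CPM in DMSO and 111 and 105 CPM at 24 h (log2 fold change -0.78 with SE 0.13, adjusted p = 0.000829). NES, the intermediate filament nestin of progenitor cells, stood at 124 and 127 CPM in DMSO and 83.5 and 82.3 CPM at 24 h (log2 fold change -0.60 with SE 0.094, adjusted p = 0.00048). Each of these was lower in both replicates. KERA and EPYC, small proteoglycans of the matrix, stood at 159 and 131 CPM in DMSO and 78.9 and 89.3 CPM at 24 h and at 262 and 231 CPM in DMSO and 158 and 169 CPM at 24 h, and fell 1.72-fold and 1.51-fold.

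Between 12 h and 24 h no gene passed the test in the fit over all 10 libraries. edgeR called 0 genes between 24 h and 12 h (0%), where 299 were higher and 290 lower at an unadjusted p under 0.05, 3.6% of those tested, and DESeq2 called 1 and limma-voom 0. The smallest adjusted p was that of MUC6, 0.0796. In the 589 genes called against DMSO the median size of the log2 fold change was 0.504 for 24 h against DMSO and 0.10 for 24 h against 12 h, with 0.094 for the latter in all genes and a median SE of 0.138. MYC held 144 and 136 CPM at 12 h, against 142 and 129.7 CPM at 24 h. MAP2 held 63.2 and 55.8 CPM at 12 h, against 66.8 and 62.8 CPM at 24 h. Some lists had a median away from 0 between these times without a called member. It was -0.162 for ribosomal proteins, -0.151 for G1/S and DNA replication and 0.145 for G2/M and mitosis, with -0.001 for all genes and -0.028 for ribosome biogenesis factors. With only the 12 h and 24 h libraries in the fit, 78 genes were called. The main fit shared its estimate of spread over all groups. The mean chi-square per gene between replicates was 2.14 at 12 h and 2.12 at 24 h, against 6.65 in DMSO and 9.05 at 96 h. The absence of calls in the main fit therefore does not show that 12 h and 24 h are alike.

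Between 24 h and 48 h 32 genes rose and 92 fell (0.757% of those tested). Genes of mitosis made up part of the falls: 22 of the 32 in the G2/M list were called lower, with a median of -0.489, against 0 in the G1/S list (median -0.214). KIF20A, a kinesin of cytokinesis, stood at 123 and 146 CPM in DMSO, 122 and 122 CPM at 12 h, 170.05 and 143 CPM at 24 h and 101 and 83.1 CPM at 48 h (log2 fold change -0.76 with SE 0.11, adjusted p = 0.00228 for 48 h against 24 h). The 24 h levels overlapped those in DMSO, and both 48 h levels lay below the other 6. PIMREG, which regulates the metaphase to anaphase transition, fell by 0.77 (adjusted p = 0.00228), PLK1 by 0.70 (adjusted p = 0.00573), MKI67 by 0.49 and CENPF by 0.48. PIMREG stood at 36.4 and 40.7 CPM in DMSO and 45.8 and 39.5 CPM at 24 h and 25.4 and 24.5 CPM at 48 h. EZR, which had risen at 24 h, fell again to 31.7 and 25.9 CPM at 48 h (log2 fold change -0.61 with SE 0.12, adjusted p = 0.0142). REXO5, an RNA exonuclease, and the antisense TMPO-AS1 fell by 0.72 and 0.69, and neither had passed the test at 24 h against DMSO (adjusted p = 0.0507 and 0.0763).

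MUC6 rose further, from 363 and 294 CPM at 24 h to 613 and 579.6 CPM at 48 h (log2 fold change 0.86 with SE 0.11, adjusted p = 0.00062), after 218 and 202 CPM at 12 h. MATN2 went from 14.3 and 20.5 to 31.1 and 26.8 CPM (log2 fold change 0.71 with SE 0.16, adjusted p = 0.0351). CA4, a carbonic anhydrase, fell at 24 h against DMSO, from 4.51 and 3.78 to 2.13 and 2.15 CPM (log2 fold change -0.96 with SE 0.27, adjusted p = 0.0474), and rose to 5.43 and 5.43 CPM at 48 h (log2 fold change 1.33 with SE 0.27, adjusted p = 0.0155). ASCL2, a helix-loop-helix factor, the potassium channel KCNH3 and the non-coding BACH1-IT2 followed the same order without passing the test at 24 h. ASCL2 went from 10.03 and 8.27 CPM in DMSO to 5.65 and 6.46 CPM at 24 h and 12.9 and 10.7 CPM at 48 h. KCNH3 went from 7.69 and 7.21 to 4.52 and 4.21 and 7.74 and 9.62 CPM, and BACH1-IT2 from 3.19 and 4.02 to 1.63 and 2.35 and 4.04 and 5.92 CPM. Only MUC6 kept its call between 24 h and 48 h without any 1 library. Of the 14 genes named for this step 13 lost it without replicate 1 of 24 h and 8 without replicate 2, and the 124 calls shrank to 2, 11, 2 and 1 without replicates 1 and 2 of 24 h and 1 and 2 of 48 h. The call of CA4 at 24 h was lost without any 1 of 8 libraries (adjusted p up to 0.329).

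**Figure D4:**
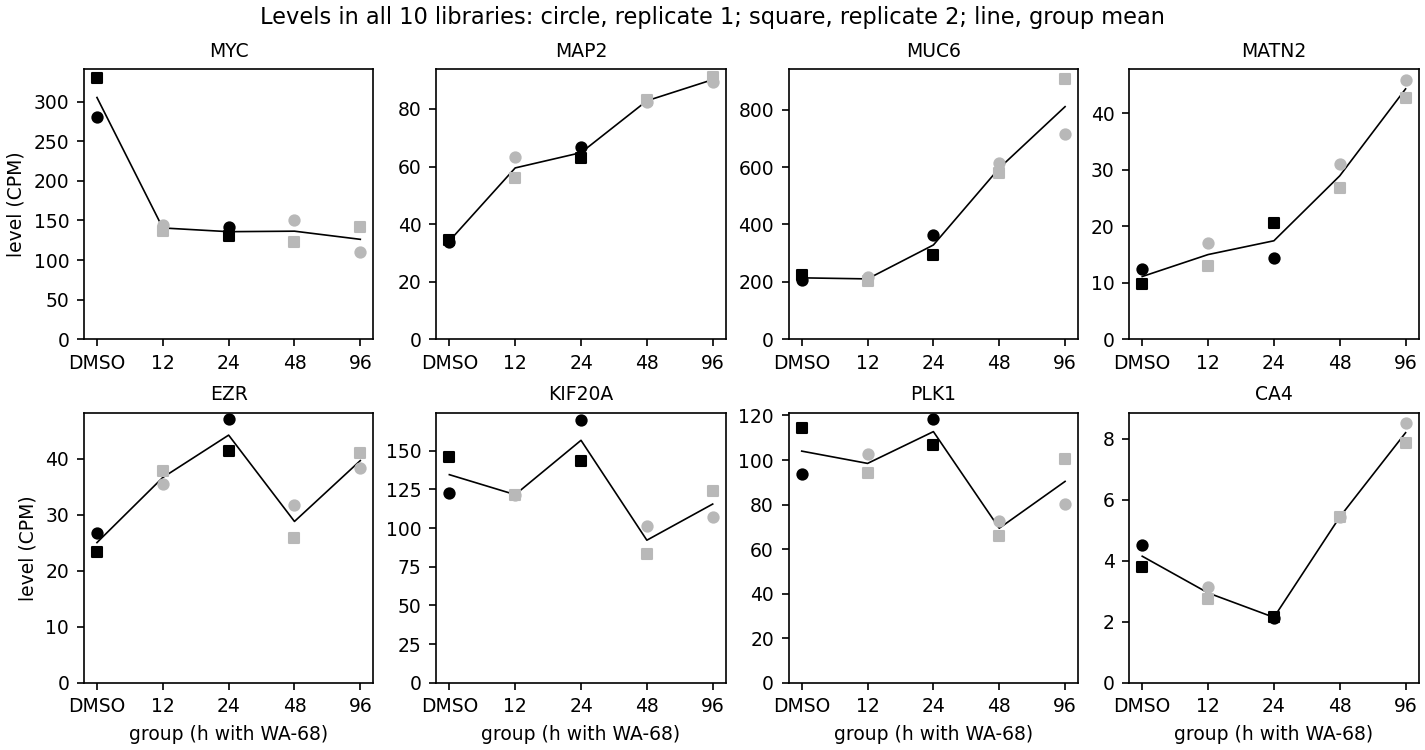
Level in CPM (vertical axes, starting at 0) of 8 genes in all 10 libraries by group (horizontal axis), with circles for replicate 1, squares for replicate 2, DMSO and 24 h in black and the line through group means. MYC and MAP2 have most of their shift by 12 h, MUC6 and MATN2 climb after 24 h, EZR, KIF20A and PLK1 are lower at 48 h than at 24 h, and CA4 has its lowest level at 24 h.

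By library, the list medians of log2 CPM relative to the DMSO mean showed which shifts were shared by both 24 h replicates. Ribosome biogenesis factors lay at -0.387 and -0.395 in the 24 h libraries, after -0.302 and -0.37 in those of 12 h. Ribosomal proteins lay at -0.322 and -0.261, after -0.136 and -0.127. Lysosomal genes lay at 0.192 and 0.173, after 0.222 and 0.185. Both 24 h replicates were thus on the same side of DMSO in each of these lists. The DMSO replicates themselves lay 0.206 apart for glycolysis, at -0.103 and 0.103, with -0.281 and -0.333 at 24 h. G2/M genes lay at 0.194 and 0.099 at 24 h, above DMSO, and at -0.359 and -0.369 at 48 h. Without replicate 2 of DMSO, which stood apart, 14 ribosome biogenesis factors, 26 ribosomal proteins, 3 glycolysis and 6 lysosomal genes were called, against 18, 29, 7 and 6 with it. Without it and replicate 2 of 96 h they numbered 20, 56, 8 and 13.

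**Figure D5:**
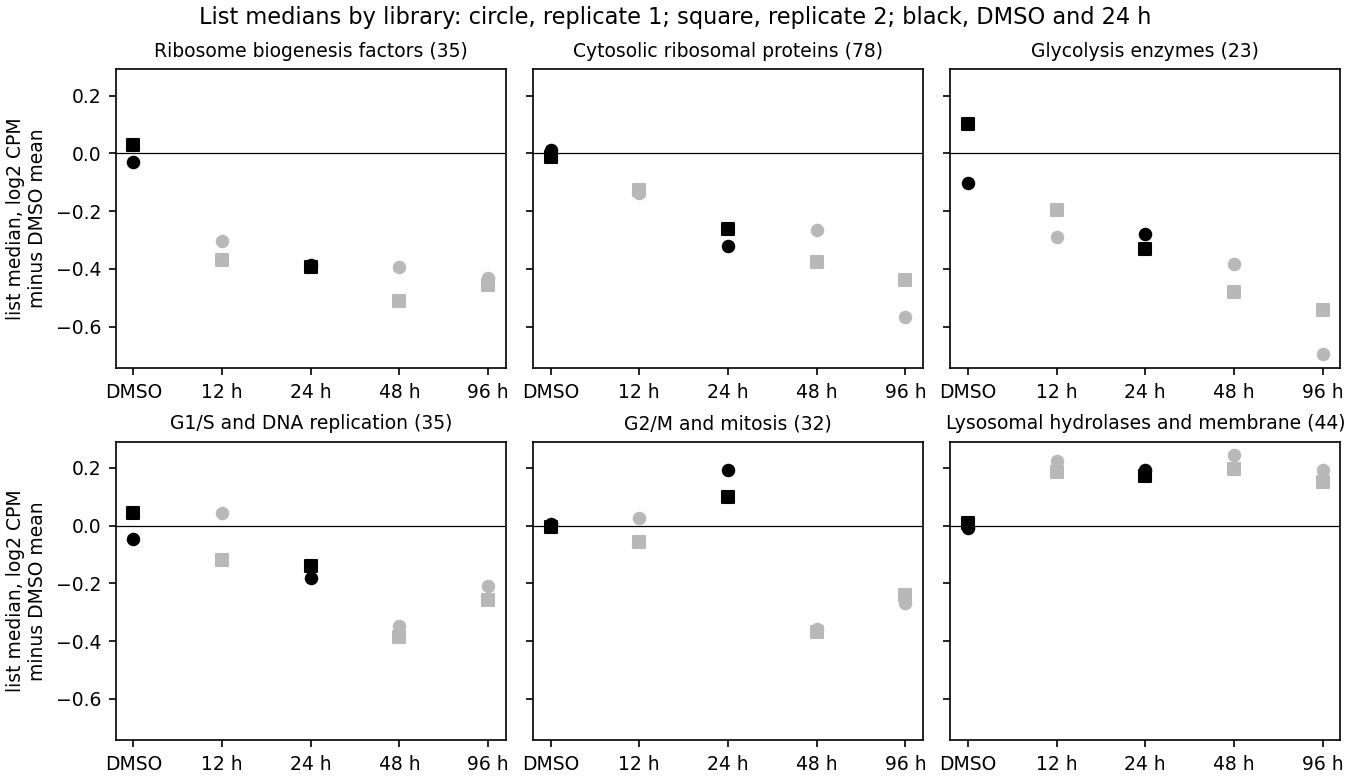
Median over list members of log2 CPM minus the DMSO mean (vertical axis, shared) in each of the 10 libraries by group (horizontal axis) for 6 lists, with circles for replicate 1, squares for replicate 2 and DMSO and 24 h in black. Ribosome biogenesis lies below 0 from 12 h on, ribosomal proteins lie lower at 24 h (-0.322 and -0.261) than at 12 h (-0.136 and -0.127), and both replicates of G2/M lie above 0 at 24 h and below it at 48 h.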

How the data were processed

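Poly(A) RNA of HS-SY-II cells was sequenced in 10 libraries, 2 labelled biological replicates for DMSO and for 12, 24, 48 and 96 h of 100 nM WA-68, and samples were grouped by their titles. The authors deposited 1 table of raw counts per gene for 63140 Ensembl identifiers. The submitters' processing notes name bcl2fastq, FastQC, Trim Galore, cutadapt, STAR, featureCounts and GRCh38. Tool versions, the annotation release, the strand setting of the counting and its treatment of reads with several matches are not given. Per the labels the libraries were stranded.

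From the counts, 16382 genes passed edgeR's filterByExpr by group. Library sizes were scaled with edgeR's TMM factors and the genes fitted with edgeR 4.0.16 (glmQLFit, glmQLFTest) in R 4.3.3 over all 10 libraries with 1 mean per group, which left 5 residual degrees of freedom. P-values were adjusted over all genes tested by Benjamini-Hochberg, and a gene was called at an adjusted p under 0.05. Total counts per library limit the precision, and the SE of each log2 fold change holds counting error and replicate spread. The spread between replicates was a biological coefficient of variation of 7.17%. List medians by library used log2 CPM with a prior count of 2. Alternatives used DESeq2 1.42.0, limma 3.58.1, other scalings, filters and thresholds, a GC offset, a replicate block and leaving out each library. The fit was tested on simulated counts with known changes. Gene names, coordinates and promoter sequences came from reference tables (GRCh38), and GC content from the gene models.

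The genes, lists and tests were chosen with earlier results of these data known. Named genes were the targeted complex (BRD9, BICRA, BICRAL, SS18, SSX1), the 20 largest rises and falls among called genes of at least 2 CPM in the higher group, the 10 smallest adjusted p in each direction, the 5 largest in each direction in the other comparisons, and up to 6 called members of each list by adjusted p. Some genes within this rule are not reported here. No set test was run. List counts, shares and medians cover only members that passed the filter, and a low member may have passed it through a group where it was high. Where no member of a list was called, its most abundant genes were left unnamed here except in the G2/M list, whose members are named for 48 h against 24 h.

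The titles do not say whether equal replicate numbers share a batch, and the main fit did not pair them. The correlation of deviations between DMSO and 24 h was -0.071, and over all pairs of groups it ranged from -0.123 to 0.186. A correlation over all genes cannot exclude a batch that touches only some of them.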

Additional observations from a re-analysis of the deposited data

Results flagged for a closer look

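These genes changed between 24 h and 48 h by the test of that difference, edgeR's quasi-likelihood test with Benjamini-Hochberg adjustment, so that their effect against DMSO differs between these times. The log2 fold change of 48 h against 24 h was 1.33 for CA4, 1.28 for BACH1-IT2, 0.99 for KCNH3, 0.96 for ASCL2, 0.86 for MUC6 and 0.71 for MATN2, all higher at 48 h. It was -0.77 for PIMREG, -0.76 for KIF20A, -0.72 for REXO5, -0.70 for PLK1, -0.69 for TMPO-AS1, -0.61 for EZR, -0.49 for MKI67 and -0.48 for CENPF, all lower at 48 h.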

How the results depend on the processing

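The 220 higher and 369 lower calls at 24 h became 108 and 180 with only the 2 groups in the fit, 133 and 289 with DESeq2, 301 and 205 when scaled by library size only, 73 and 149 at an adjusted p under 0.01, 39 and 38 with a log2 fold change of at least 1, and 0 and 11 against a 1.5-fold change with glmTreat. They were 583 and 812 with an offset for GC content, 556 and 790 with the replicate block and that offset, and 202 and 325 with the replicate block alone, which also gave 0 calls for 24 h against 12 h and 93 for 48 h against 24 h. Leaving out 1 library gave 45 to 321 higher and 67 to 636 lower calls, both minima without replicate 2 of 24 h. Leaving out replicate 2 of DMSO and of 96 h together, chosen after seeing the data, gave 458 and 665, with 24 and 440 calls in the other comparisons. For 24 h against 12 h, 1 call was made with library size only, 1 with DESeq2, 11 without a filter, 78 with only the 2 groups, 2 with the GC offset and 2 with the block and GC offset, and 0 to 4 without 1 library. For 48 h against 24 h the 124 calls became 227 without a filter, 424 with only the 2 groups, 38 at an adjusted p under 0.01, 2 with a log2 fold change of at least 1, 0 with glmTreat, 323 with the GC offset and 317 with the block and GC offset, and 1 to 222 without 1 library. Whether equal replicate numbers mark a shared batch is not known here.

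Among log2 fold changes of named genes 7 values turned sign, all in genes not called at 24 h. BICRA ranged from -0.268 to 0.107 without 1 library, with 0.107 without replicate 2 of DMSO, 0.031 without replicate 2 of 24 h and 0.106 without replicate 2 of DMSO and 96 h. SSX1 ranged from -0.002 to 0.14, the first without replicate 2 of DMSO, and went to -0.001 when replicate 2 of 96 h was left out too. SS18 ranged from -0.024 to 0.094 and PLK1 from -0.025 to 0.266, both lowest without replicate 1 of DMSO. The medians given for the ncBAF, canonical BAF and PBAF, Polycomb and E3 ligase lists, all near 0, crossed 0 under at least 1 alternative, and the other medians given kept their sign. The cause of these changes was not tested. With 7931031 to 13200051 counts in the 4 libraries, the smallest called change was 1.20-fold.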

Other observations

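MT-RNR1 and MT-RNR2, the mitochondrial ribosomal RNAs, were chosen after their values were seen because they differed more between replicates than between groups. MT-RNR1 stood at 11.3 and 68.4 CPM in DMSO and 9.80 and 373 CPM at 24 h (adjusted p = 0.227). MT-RNR2 stood at 19.5 and 97.6 CPM in DMSO and 18.3 and 578 CPM at 24 h (adjusted p = 0.208). In both genes replicate 2 was the higher library in DMSO and at 24 h.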
